A study of Mus musculus with 8 samples.

Results

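The 10 genes described here store, import, export and sense cellular iron or take apart the pigment left when haem is broken down. They are Fth1, Ftl1, Tfrc, Slc11a2, Slc11a1, Slc40a1, Aco1, Ireb2, Blvra and Blvrb, found as the rows of the deposited count table that carry these symbols, 10 of 22013 genes. All 10 had enough counts to be tested. None changed past the threshold, a Benjamini-Hochberg adjusted p under 0.05 by the quasi-likelihood test of edgeR, and their log2 fold changes lay between -0.15 (Ireb2) and 0.11 (Fth1). The values of the ferritin, transferrin receptor and Ireb2 transcripts were within 0.05 of 0 once a trend of the libraries with transcript length and GC content was removed. Hmox1, which encodes the enzyme that frees iron from haem, was the 1 other iron or haem gene past that threshold, higher after rFSTL1.

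The study asked whether FSTL1, a glycoprotein secreted by liver endothelial cells, acts on macrophages in steatohepatitis. RNA-seq was carried out on polyA RNA of RAW264.7 cells, a macrophage-like line derived from a virus-induced tumour of a BALB/c mouse. The 4 control libraries were labelled PBS and the 4 treated libraries rFSTL1, which stands for recombinant FSTL1, given at 100 ng/mL for 24 h. The labels name no genetic change in either group and give no time for PBS, and an immortal line grown without other liver cells stands in for hepatic macrophages in both.

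Library totals ran from 15183118 to 20234477 counts in the PBS group and from 15062023 to 19260960 in the rFSTL1 group. All 10 macrophage markers were tested. In CPM, counts scaled to a common library size by TMM, they summed to 5974 to 6135 with PBS and 6018 to 6267 with rFSTL1. Their levels were uneven: with PBS, Csf1r had a mean of 1255 CPM and Lyz2 of 1163 CPM. Adgre1 was low, at 3.10 to 4.14 CPM with PBS and 2.74 to 4.43 CPM with rFSTL1. None of the 10 markers was called by edgeR, DESeq2 or limma voom, beside 0.344, 1.83 and 4.22% of all genes tested. At an unadjusted p under 0.05, 2 were higher and 0 lower, beside 15.9% of all genes in either direction. No marker of endothelial cells, hepatocytes, lymphocytes or fibroblasts had enough counts to be tested. The highest summed level of such a list in a library was 1.40 CPM for the fibroblast list in a PBS library and 1.35 CPM for the hepatocyte list in an rFSTL1 library. The labels do not say that the libraries came from separate cultures, so the p-values measure only the spread between these libraries, which may be technical. In bulk RNA, fewer cells carrying a transcript and less transcript per cell cannot be told apart.

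Free iron catalyses the formation of radicals, so cells keep it inside ferritin, a shell built from heavy subunits (Fth1), which oxidise the iron, and light subunits (Ftl1), which help to form the mineral core. Supply is matched to need mostly after transcription: the iron regulatory proteins IRP1 (Aco1) and IRP2 (Ireb2) bind iron-responsive elements, short RNA hairpins, when iron is scarce. A hairpin in the 5′ untranslated region (UTR) lets them block translation, as in ferritin and ferroportin (Slc40a1), and hairpins in the 3′ UTR protect the transcript from decay, as in the transferrin receptor (Tfrc). Macrophages use the same proteins to recycle iron from old red cells: haem oxygenase opens haem, ferroportin exports the iron, and the biliverdin reductases (Blvra and Blvrb) turn the remaining pigment into bilirubin.

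These hairpins tie 4 of the 10 genes to the 2 iron regulatory proteins, so their sequences are shown. The search, on the sense strand of the UTRs of GENCODE M21 transcripts, asked for a C that bulges out of the stem, then 5 bases, the loop CAGTGN and 5 bases that pair with the first 5, with G-T pairs allowed. Each line gives 30 bases of the transcript, 5′ to 3′, written as DNA, with the loop in capitals. Coordinates are those of GRCm38, the build of that reference, since the build behind the count table is not given in the sources used here.
Fth1, 5′ UTR, chr19:9982732-9982761, plus strand: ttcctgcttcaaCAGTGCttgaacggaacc
Ftl1, 5′ UTR, chr7:45459778-45459807, minus strand: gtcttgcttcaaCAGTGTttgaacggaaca
Slc40a1, 5′ UTR, chr1:45925464-45925493, minus strand: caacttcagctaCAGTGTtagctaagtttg
Tfrc, 3′ UTR, chr16:32631219-32631248, plus strand: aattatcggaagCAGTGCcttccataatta
Tfrc, 3′ UTR, chr16:32631598-32631627, plus strand: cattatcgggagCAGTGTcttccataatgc
Tfrc, 3′ UTR, chr16:32631663-32631692, plus strand: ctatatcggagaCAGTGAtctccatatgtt
Tfrc, 3′ UTR, chr16:32631710-32631739, plus strand: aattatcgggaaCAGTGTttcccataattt

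The ferritin and ferroportin transcripts each held 1 such hairpin ahead of the coding sequence, and Tfrc held 4 behind it. The motif ended 115 bases before the coding sequence in Fth1, 153 in Ftl1 and 207 in Slc40a1, and in Tfrc the motifs began 888, 1267, 1332 and 1379 bases after it. No match was found in the UTRs of Slc11a2, Slc11a1, Aco1, Ireb2, Blvra or Blvrb, which says only that this pattern of letters is not there. Iron-responsive elements with another form of stem were not searched for, so these genes may still carry one. Of 21899 protein-coding genes searched the same way, 155 (0.708%) held a match in either UTR, and in 28 of them it lay in the 5′ UTR. A match is a feature of the sequence, and binding was not measured.

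The levels of the 10 genes spanned a wide range, here compared as CPM per kilobase of transcript over all 8 libraries. Fth1 stood highest, with a median of 4391 and a range of 4171 to 4776, followed by Ftl1 with a median of 3318. The 2 ferritin genes together took 0.692 to 0.737% of all counts in the PBS libraries and 0.718 to 0.814% in the rFSTL1 libraries. Tfrc followed with a median of 169 CPM per kilobase, Blvra with 67.6, Ireb2 with 36.04, Aco1 with 19.5 and Slc11a2 with 17.6. Blvrb (5.70), Slc11a1 (4.37) and Slc40a1 (2.67) stood lowest. The ranges of Aco1 and Slc11a2 overlapped although Aco1 was above Slc11a2 in 8 of 8 libraries, those of Blvrb and Slc11a1 overlapped with Blvrb above in 7 of 8, and every other pair of neighbours had separate ranges.

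**Figure D1:**
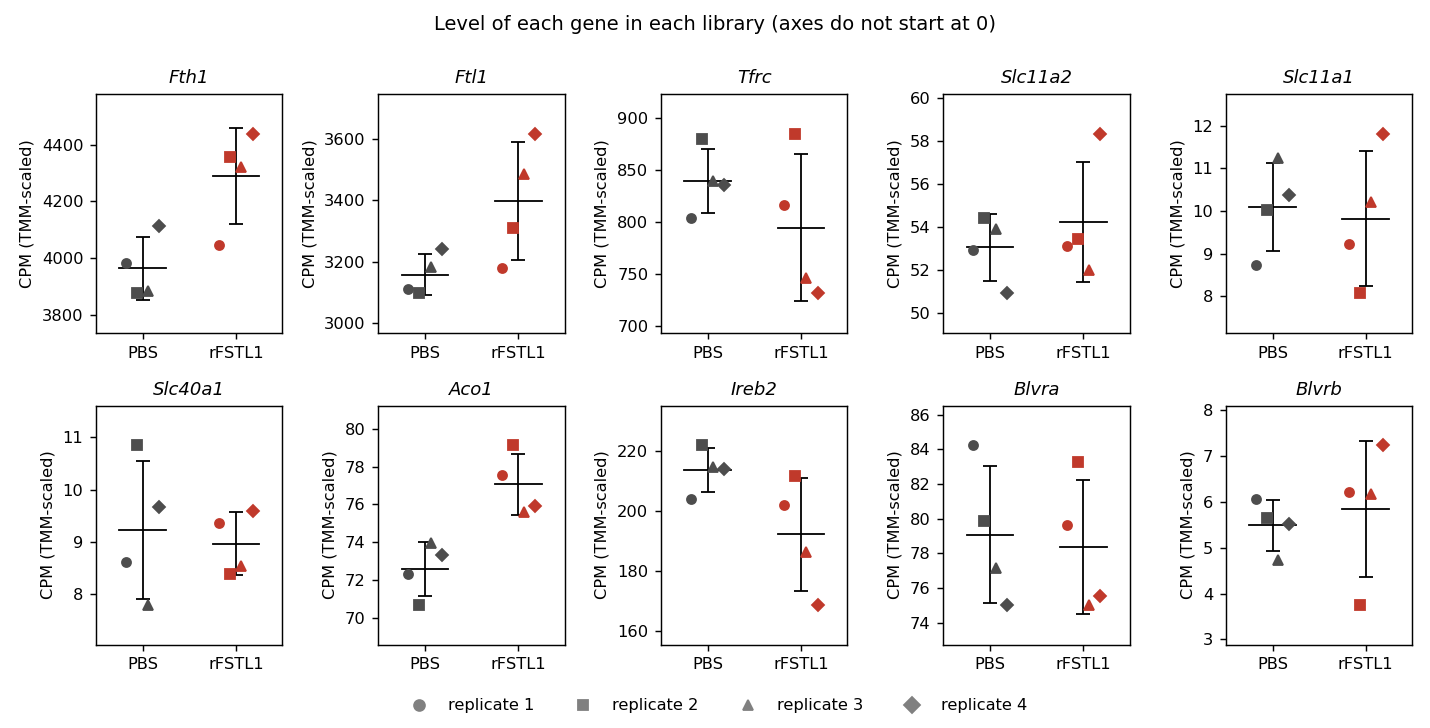
CPM of each of the 10 genes (y axis, scaled between libraries by TMM, not starting at 0) in the 4 PBS (grey) and 4 rFSTL1 (red) libraries, with the replicate number as the symbol and the group mean and SD as bars. Aco1 alone had all rFSTL1 libraries (75.6 to 79.1 CPM) above all PBS libraries (70.7 to 74.0 CPM), and in every other panel the groups overlap.

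In the comparison of rFSTL1 with PBS, none of the 10 genes was called by edgeR's quasi-likelihood test, where 37 of 10748 genes tested (0.344%) were called, 35 of them higher and 2 lower. At an unadjusted p under 0.05, 2 of the 10 were higher (Fth1 and Ftl1) and 1 was lower (Ireb2), beside 15.9% of all genes tested in either direction. Of the 10, 1 had no overlap between the groups with rFSTL1 higher, beside 4.63% of all genes, and 0 had no overlap with rFSTL1 lower, beside 3.53%. DESeq2 called 0 of the 10, beside 1.83% of all genes, and limma voom with sample quality weights called 1 of them, Fth1, beside 4.22%. The median log2 fold change of the 10 was 0.01, which is also the median of all genes tested, and 5 values were positive and 5 negative. The sign of each was the same with DESeq2 size factors, upper-quartile scaling and library totals alone. The all-gene count leaned on single libraries: it was 24, 11, 12 and 12 without PBS replicate 1, 2, 3 or 4 and 99, 90 and 16 without rFSTL1 replicate 1, 2 or 3.

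Of the 10 genes, the heavy ferritin subunit had the smallest unadjusted p by edgeR's quasi-likelihood test (0.00931). By the exact permutation test Aco1 had the smallest. Fth1 (ENSMUSG00000024661) was at 3982, 3875, 3885 and 4113 CPM in PBS replicates 1 to 4 and at 4045, 4356, 4320 and 4437 CPM in rFSTL1 replicates 1 to 4. Replicates 2, 3 and 4 of rFSTL1 were above every PBS library and replicate 1 was inside their range. The fitted log2 fold change was 0.11 ± 0.04 (SE), or 8.22% with a 95% confidence interval of 2.27 to 14.5%, with an adjusted p of 0.194 by edgeR's quasi-likelihood test. By limma voom the adjusted p was 0.0437, and by the exact two-sided permutation test the p was 0.0571 (4 against 4 libraries, where the smallest possible is 0.0286).

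Ftl1 (ENSMUSG00000050708), the light subunit, was at 3110, 3096, 3182 and 3241 CPM with PBS and at 3178, 3310, 3486 and 3614 CPM with rFSTL1. Its pattern over the libraries was that of Fth1, with rFSTL1 replicate 1 inside the PBS range and the other 3 above it. This gave a log2 fold change of 0.11 ± 0.04 (SE), a change of 7.60% with a 95% interval of 1.16 to 14.5% and an adjusted p of 0.248 by edgeR. The light subunit has a close copy, Ftl1-ps1, that carries the same 30 bases around its hairpin motif, so reads of the pair may be split between the rows. Ftl1-ps1 was listed at 0.486 to 1.12 CPM with PBS and 0.735 to 1.54 CPM with rFSTL1, with a log2 fold change of 0.68 ± 0.33 (SE) and an adjusted p of 0.333. The 6 Fthl17 rows, relatives of the heavy subunit, had no counts in any library, and the number of Fth1 counts for each Ftl1 count was 1.22 to 1.28 with PBS and 1.23 to 1.32 with rFSTL1.

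Of the uptake genes, Tfrc (ENSMUSG00000022797), the receptor that brings transferrin-bound iron into the endosome, was at 804, 879, 839 and 835 CPM with PBS. With rFSTL1 it was at 816, 884, 746 and 731 CPM. Replicates 3 and 4 of rFSTL1 were below every PBS library, replicate 1 was inside the PBS range and replicate 2 was above it, so the groups overlapped. The difference was a log2 fold change of -0.08 ± 0.05 (SE), a change of -5.36% with a 95% interval of -12.7 to 2.59% and an adjusted p of 0.496 by edgeR.

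Slc11a2 (ENSMUSG00000023030) encodes DMT1, which carries ferrous iron out of the endosome. It was at 52.95, 54.4, 53.9 and 50.9 CPM with PBS and at 53.1, 53.5, 52.0 and 58.3 CPM with rFSTL1, where replicate 4 alone was above the PBS range. The log2 fold change was 0.03 with a 95% interval of -0.08 to 0.14 (adjusted p = 0.805, edgeR). Its relative Slc11a1 (ENSMUSG00000026177), or NRAMP1, moves metal ions out of the phagosome of macrophages, and BALB/c mice carry a loss-of-function allele of it. Slc11a1 was at 8.74, 10.02, 11.3 and 10.4 CPM with PBS and at 9.22, 8.07, 10.2 and 11.8 CPM with rFSTL1. The treated libraries reached below and above the PBS range. The log2 fold change was -0.04 with a 95% interval of -0.30 to 0.23 (adjusted p = 0.911, edgeR).

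Slc40a1 (ENSMUSG00000025993) encodes ferroportin, the exporter of cellular iron, and per length it was the lowest of the 10. It was at 8.62, 10.8, 7.80 and 9.66 CPM with PBS and at 9.35, 8.38, 8.53 and 9.60 CPM with rFSTL1. All rFSTL1 libraries lay inside the PBS range. With 136 to 196 counts in a library, the 95% interval of the log2 fold change ran from -0.29 to 0.21 around -0.04 (adjusted p = 0.896, edgeR).

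The fold changes of the 2 iron sensors had opposite signs, and neither gene passed the threshold. Aco1 (ENSMUSG00000028405) encodes a cytosolic aconitase that becomes IRP1 when it loses its iron-sulfur cluster. It was at 72.3, 70.7, 74.0 and 73.3 CPM with PBS and at 77.6, 79.1, 75.6 and 75.9 CPM with rFSTL1. Every rFSTL1 library was above every PBS library, which gives the smallest p that the exact permutation test allows, 0.0286. The log2 fold change was 0.09 ± 0.04 (SE), a change of 6.14% with a 95% interval of -0.457 to 13.2%, and the adjusted p was 0.347 by edgeR.

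Ireb2 (ENSMUSG00000032293) encodes IRP2, a protein that is degraded when iron is plentiful. It was at 204, 222, 215 and 214 CPM with PBS and at 202, 212, 187 and 169 CPM with rFSTL1. Replicates 1, 3 and 4 of rFSTL1 were below every PBS library and replicate 2 was inside the PBS range. On the log2 scale the change was -0.15 ± 0.06 (SE), a change of -10.1% with a 95% interval of -17.6 to -1.87% and an adjusted p of 0.239 by edgeR. By limma voom the adjusted p was 0.0521, and the exact permutation p was 0.0571.

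Blvra (ENSMUSG00000001999), the main biliverdin reductase of adult tissue, was at 84.2, 79.9, 77.2 and 75.04 CPM with PBS and at 79.6, 83.3, 75.04 and 75.6 CPM with rFSTL1. The rFSTL1 libraries stayed within the PBS range, and the log2 fold change was -0.01 with a 95% interval of -0.12 to 0.10 (adjusted p = 0.917, edgeR). Blvrb (ENSMUSG00000040466), which also acts as a flavin reductase, was at 6.07, 5.65, 4.74 and 5.52 CPM with PBS and at 6.21, 3.76, 6.18 and 7.24 CPM with rFSTL1. Replicate 2 of rFSTL1 was below every PBS library and the other 3 were above. Blvrb had only 61 to 141 counts in a library, and its log2 fold change of 0.10 ± 0.17 (SE) had an interval of -0.27 to 0.47 (adjusted p = 0.807, edgeR).

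**Figure D2:**
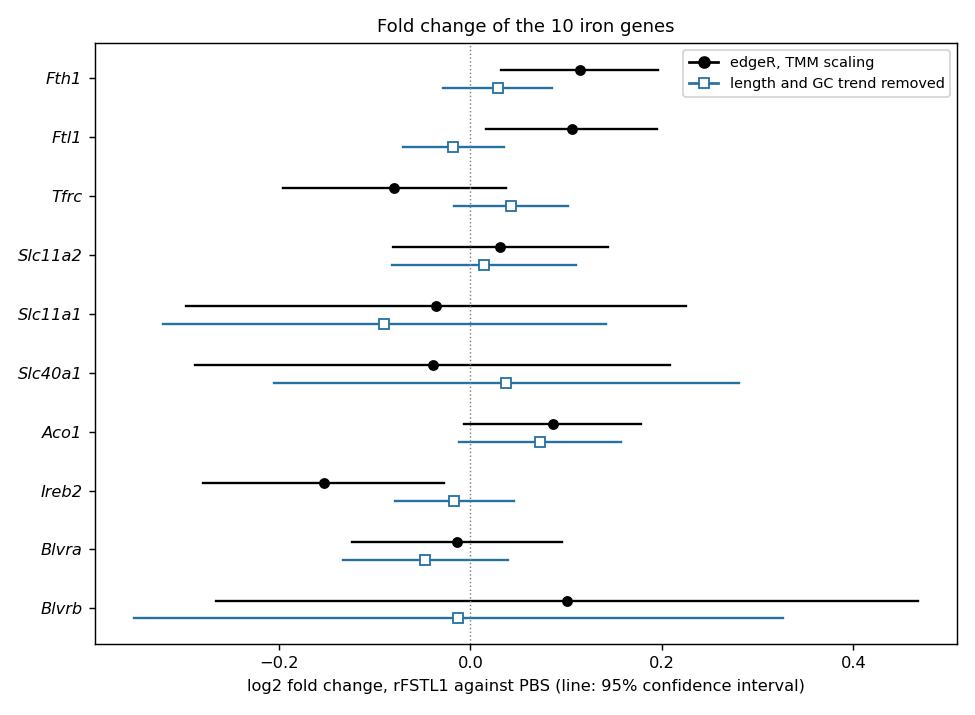
Log2 fold change of each of the 10 genes (x axis, rFSTL1 against PBS) with its 95% confidence interval as a line, in black from edgeR with TMM scaling and in blue after the trend of each library with transcript length and GC content was removed. The black intervals of Fth1, Ftl1 and Ireb2 lie clear of 0, and all 10 blue intervals cross 0.

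The fold changes of these genes stood beside a trend of the libraries with transcript length and GC content. Over all genes tested, those with the shortest transcripts (the lowest decile, up to 1233 bases) had a median log2 fold change of 0.08, and those with the longest (the highest decile, 6364 bases or more) had a median of -0.04. Fth1 (929 bases) and Ftl1 (968 bases) are short, and Tfrc (4890 bases) and Ireb2 (5770 bases) are long. Blvrb (1028 bases) and Blvra (1160 bases) are short too, with log2 fold changes of 0.10 and -0.01 before any removal. Ireb2 (39.0% GC) and Tfrc (39.8%) also have the lowest GC content of the 10 transcripts and Ftl1 (58.1%) the highest, with Fth1 at 53.4%. Length and GC content were removed together, so their parts cannot be told apart here. With the length and GC trend removed from each library, the log2 fold change was 0.03 for Fth1 (adjusted p = 0.735, edgeR), -0.02 for Ftl1, 0.04 for Tfrc and -0.02 for Ireb2. Aco1, at 3832 bases, had 0.07 in place of 0.09. The values of the other 5 genes became 0.01 for Slc11a2, -0.09 for Slc11a1, 0.04 for Slc40a1, -0.05 for Blvra and -0.01 for Blvrb. Whether the trend arose in the cells or in the libraries was not tested.

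The trend also differed among the treated libraries. The median deviation of the shortest decile minus that of the longest, in log2 units, was -0.01, -0.03, -0.08 and -0.10 in PBS replicates 1 to 4. It was -0.01, 0.09, 0.10 and 0.08 in rFSTL1 replicates 1 to 4, so rFSTL1 replicate 1 lay with the PBS libraries. That library was also the treated library with the lowest Fth1 and Ftl1. For the long transcripts, rFSTL1 replicate 2, at 0.09, had the highest Tfrc (884 CPM) and the highest Ireb2 (212 CPM) of the treated libraries, and rFSTL1 replicate 1, at -0.01, had Ireb2 (202 CPM) below every PBS library. With the length and GC trend removed, the SE of the log2 fold change went from 0.055 to 0.028 for Tfrc and from 0.059 to 0.030 for Ireb2. Without rFSTL1 replicate 1 the log2 fold changes were 0.14 for Fth1 and 0.13 for Ftl1, and none of the 10 genes was called by edgeR.

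**Figure D3:**
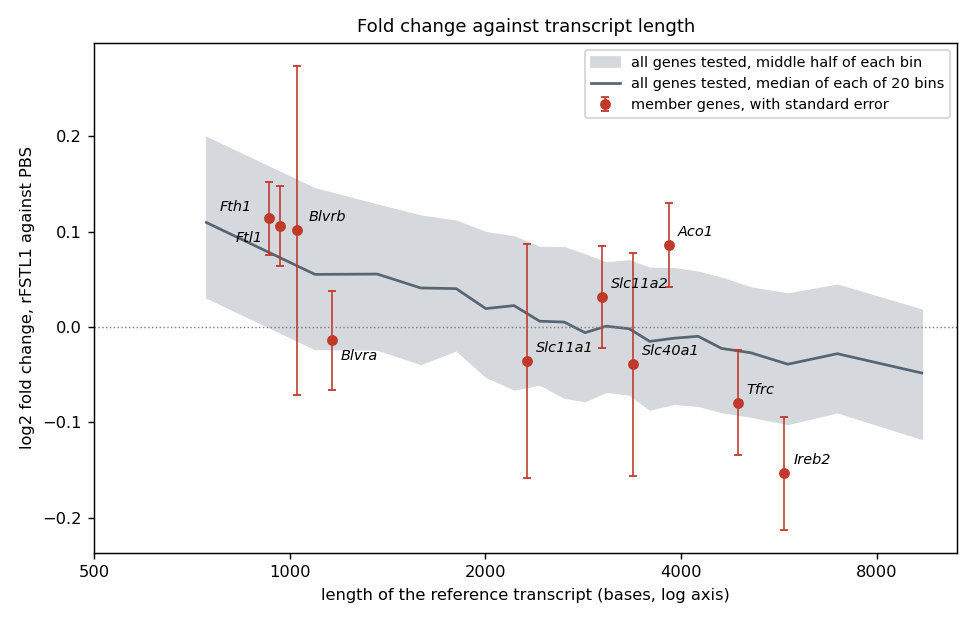
Log2 fold change (y axis, rFSTL1 against PBS) against transcript length in bases (x axis, log scale). The line is the median of all genes tested in bins of length, and the band runs from the lower to the upper quartile of each bin. Red points are the 10 genes with their standard error. Fth1, Ftl1 and Blvrb sit on the raised left side of the line, where Blvra lies below it. Tfrc and Ireb2 lie below its lowered right side, and Aco1 lies above the line.

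A ratio of 2 genes within a library does not depend on the scaling between libraries, and 6 pairs were compared by exact two-sided permutation tests of the log2 ratio. The number of Ireb2 counts for each Aco1 count was 2.82, 3.14, 2.90 and 2.92 with PBS and 2.61, 2.68, 2.47 and 2.22 with rFSTL1. All 4 rFSTL1 libraries were below all PBS libraries. The difference in the log2 ratio was -0.24, or -15.5% (exact p = 0.0286, the smallest possible, and 0.171 after Benjamini-Hochberg adjustment over the 6 pairs). Without PBS replicate 2 it was -0.21 (exact p = 0.0571). With the length and GC trend removed, an alternative chosen after seeing the data, it was -0.09 with 3 of 4 rFSTL1 libraries below all PBS libraries (exact p = 0.0571).

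Tfrc counts for each Fth1 count set the transcript of the receptor that brings iron in against that of the subunit that stores it. Protein and iron content were not measured in these data. The ratios were 0.202, 0.227, 0.216 and 0.203 with PBS and 0.202, 0.203, 0.173 and 0.165 with rFSTL1. Replicates 3 and 4 of rFSTL1 were below every PBS library and the other 2 reached into the PBS range. The difference was -0.20 on the log2 scale (exact p = 0.143), and 0.01 with the length and GC trend removed (exact p = 0.771). For the other 4 pairs the log2 differences were 0.01 for Fth1/Ftl1, 0.05 for Slc40a1/Tfrc, 0.08 for Slc11a2/Slc11a1 and 0.07 for Blvrb/Blvra, each with an exact permutation p of 0.543 or more. With the trend removed, Fth1/Ftl1 was 0.05 with 3 of 4 rFSTL1 libraries above all PBS libraries (exact p = 0.0857). The difference for Blvrb/Blvra depended on single libraries: it was 0.29 without rFSTL1 replicate 2 (exact p = 0.0286, the smallest possible with 3 libraries against 4) and -0.06 without rFSTL1 replicate 4.

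**Figure D4:**
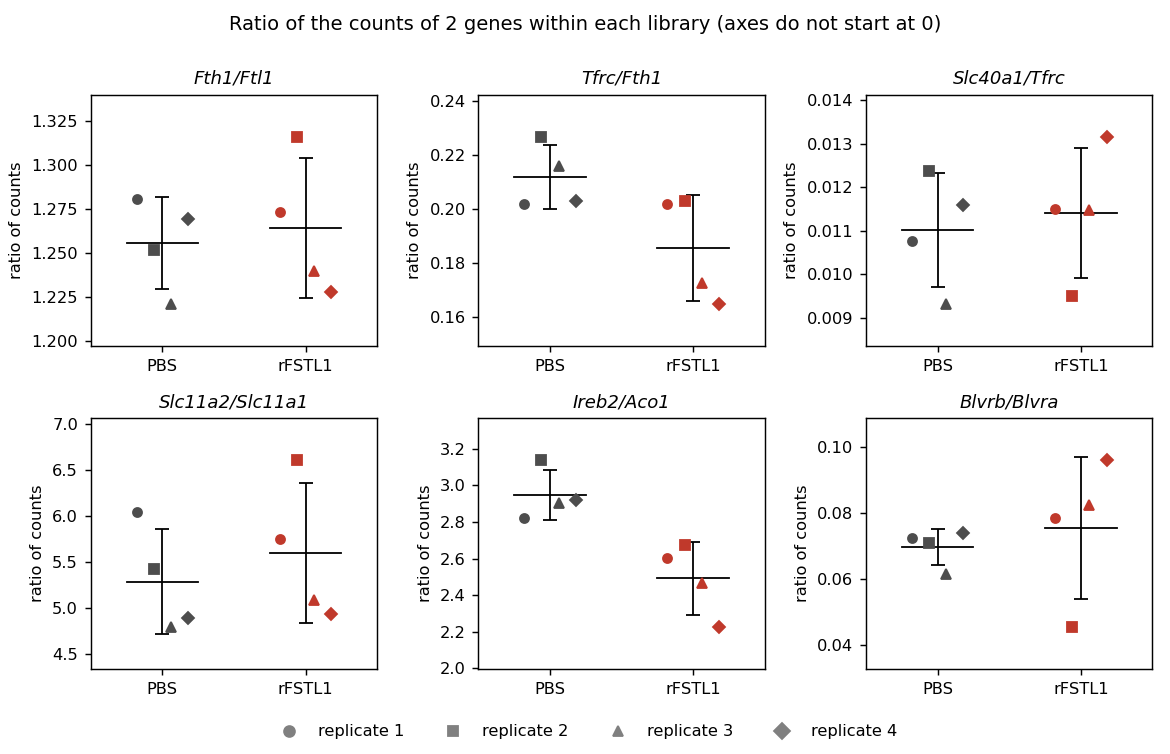
Ratio of the counts of 2 genes within each library (y axis, not starting at 0) for the 6 pairs, in the 4 PBS (grey) and 4 rFSTL1 (red) libraries, with bars for the mean and SD. The groups separate for Ireb2/Aco1 (2.82 to 3.14 with PBS, 2.22 to 2.68 with rFSTL1) and overlap for the other 5 pairs.

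The other genes of iron and haem handling were taken from 7 lists of 89 symbols, the ferritin copies kept apart. They matched 91 rows, of which 66 were tested, and 1 of those was called by edgeR, beside 0.344% of all genes. At an unadjusted p under 0.05, 8 were higher and 6 lower, beside 15.9% of all genes. Their median log2 fold change was 0.03, or 0.01 with the length and GC trend removed, against 0.01 for all genes. The called gene was Hmox1 (ENSMUSG00000005413), the inducible haem oxygenase. It was at 111, 117, 118 and 111 CPM with PBS and at 162, 140, 136 and 153 CPM with rFSTL1. Every rFSTL1 library was above every PBS library. Its log2 fold change was 0.37 ± 0.05 (SE), with a 95% interval of 0.25 to 0.48 and an adjusted p of 0.00676 by edgeR. It was 0.32 with the length and GC trend removed, and without PBS replicate 4 it was 0.35 with an adjusted p of 0.0631.

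Blvra and Blvrb act one step after Hmox1, and neither was called. Of the transcription factors known to govern Hmox1 and ferritin, the activator Nfe2l2 was at 217 to 227 CPM with PBS and 197 to 218 CPM with rFSTL1 (log2 fold change -0.08, adjusted p = 0.368, edgeR, or -0.05 with the length and GC trend removed). The repressor Bach1 was at 35.4 to 37.3 and 32.1 to 36.6 CPM (-0.03, adjusted p = 0.833, edgeR). Hif1a, which also induces Hmox1 and Tfrc, had a log2 fold change of -0.13 (adjusted p = 0.234 by edgeR and 0.0435 by limma voom), and -0.03 with the length and GC trend removed. In the whole list of transcription factors, 0 of 6 tested genes were called by edgeR, 0 by DESeq2 and 1 by limma voom. These tools called 0.344, 1.83 and 4.22% of all genes. At an unadjusted p under 0.05, 0 of the 6 were higher and 1 lower, beside 15.9% of all genes in either direction.

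Ncoa4, the receptor that delivers ferritin to the lysosome, was at 134, 141, 134 and 135 CPM with PBS and at 131, 115, 124 and 123 CPM with rFSTL1. All rFSTL1 libraries were below all PBS libraries. The log2 fold change was -0.14 ± 0.05 (SE, adjusted p = 0.177, edgeR), and -0.07 with the trend removed. Fbxl5, the iron-sensing subunit of the ligase that degrades IRP2, had a log2 fold change of -0.09 (adjusted p = 0.468, edgeR), or -0.03 with the trend removed. Of the 4 tested genes of ferritin turnover and IRP control, none was called by edgeR, DESeq2 or limma voom. These tools called 0.344, 1.83 and 4.22% of all genes. Of the 4, 1 (Ncoa4) was lower at an unadjusted p under 0.05, beside 15.9% of all genes in either direction.

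In the list of iron uptake and trafficking, 7 of 16 genes were tested and 0 were called by edgeR, DESeq2 or limma voom. These tools called 0.344, 1.83 and 4.22% of all genes. At an unadjusted p under 0.05, 2 of the 7 were higher, beside 15.9% of all genes in either direction. Pcbp1, a chaperone that hands iron to ferritin, had a log2 fold change of 0.11 (adjusted p = 0.288, edgeR), or 0.03 with the trend removed. Steap3, the reductase that prepares endosomal iron for DMT1, had 0.07 (adjusted p = 0.707, edgeR). Of iron export and hepcidin, 1 of 8 genes was tested and was not called by any of the 3 tools, with 0 at an unadjusted p under 0.05. Hamp and Hamp2, which encode hepcidin, had no counts in any library, and neither did Cd163, the haemoglobin receptor, nor Spic, a factor of iron-recycling macrophages.

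Among haem carriers, Flvcr1, an exporter, was at 76.6 to 87.1 CPM with PBS and 68.5 to 78.4 CPM with rFSTL1 (log2 fold change -0.17, adjusted p = 0.168, edgeR). Abcg2, which exports haem and other substrates, was low, at 2.56 to 3.01 CPM with PBS and 1.601 to 2.67 CPM with rFSTL1, with a log2 fold change of -0.53 ± 0.20 (SE, adjusted p = 0.230, edgeR). Slc48a1, which moves haem out of the phagolysosome, had 0.01 (adjusted p = 0.975, edgeR). In the list of haem import and breakdown 8 of 12 genes were tested. At an unadjusted p under 0.05, 2 were higher and 2 lower, beside 15.9% of all genes in either direction. Hmox1 was the 1 call of edgeR, DESeq2 and limma voom, which called 0.344, 1.83 and 4.22% of all genes.

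Alas1, the first and rate-limiting enzyme of haem synthesis, was at 31.0, 32.7, 29.8 and 27.9 CPM with PBS and at 37.1, 38.0, 33.6 and 37.6 CPM with rFSTL1. All rFSTL1 libraries were above all PBS libraries. Its log2 fold change was 0.27 ± 0.07 (SE), with an adjusted p of 0.0934 by edgeR and 0.0324 by DESeq2. It was 0.24 with the trend removed, and without PBS replicate 4 it was 0.22 (adjusted p = 0.322, edgeR). Of the 11 tested genes of haem synthesis, 1 (Alas1) was higher and 0 lower at an unadjusted p under 0.05, beside 15.9% of all genes. Of the 11, 0 were called by edgeR, 1 by DESeq2 and 0 by limma voom, beside 0.344, 1.83 and 4.22% of all genes.

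Of the 29 tested genes of mitochondrial iron and iron-sulfur clusters, 3 were higher and 2 lower at an unadjusted p under 0.05. This stood beside 15.9% of all genes in either direction. Of the 29, 0 were called by edgeR, 1 by DESeq2 and 1 by limma voom, beside 0.344, 1.83 and 4.22% of all genes. The gene called by DESeq2 and limma voom was Ciao2b, a factor that places clusters into cytosolic proteins. It was at 19.0, 16.1, 19.3 and 18.8 CPM with PBS and at 19.8, 26.4, 24.4 and 23.9 CPM with rFSTL1. The groups did not overlap, although rFSTL1 replicate 1 was close to the PBS libraries. The log2 fold change was 0.37 ± 0.09 (SE, adjusted p = 0.0951, edgeR), or 0.25 with the trend removed (adjusted p = 0.176, edgeR). Without PBS replicate 2, the lowest PBS library, it was 0.31 (adjusted p = 0.308, edgeR). Slc25a37, the mitochondrial iron importer mitoferrin, had a log2 fold change of -0.05 (adjusted p = 0.676, edgeR), or -0.03 with the trend removed.

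**Figure D5:**
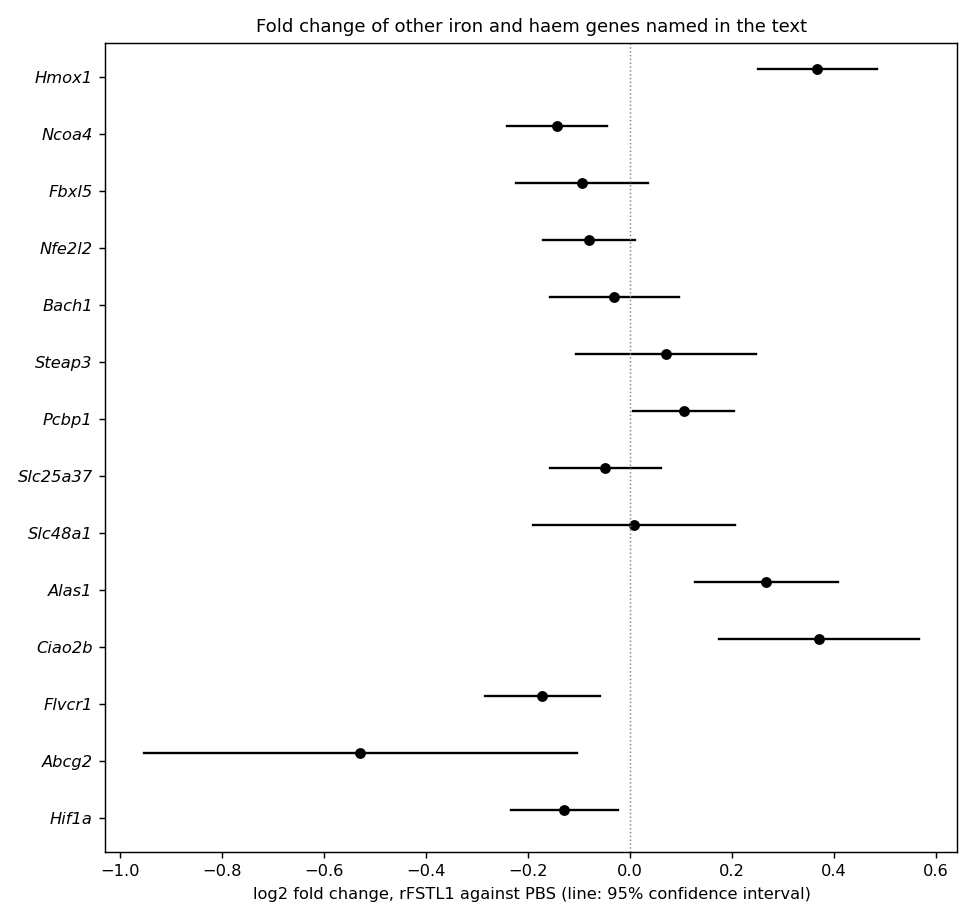
Log2 fold change (x axis, rFSTL1 against PBS, edgeR with TMM scaling) of the other iron and haem genes named here, with the 95% confidence interval as a line. Hmox1, at 0.37 with an interval of 0.25 to 0.48, is the 1 gene drawn with an adjusted p under 0.05. The intervals of Ciao2b, Alas1 and Pcbp1 also lie above 0, and those of Abcg2, Flvcr1, Ncoa4 and Hif1a lie below 0.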

How the data were processed

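Values were taken from 8 RNA-seq libraries, 4 PBS and 4 rFSTL1, grouped by their labels. The authors deposited expected counts (estimated counts) for 22013 genes, not normalized. Of the nonzero values 13.0% were not whole, and all were rounded, although the design had assumed whole counts. The submitters' processing notes name Bowtie2 2.2.8, HISAT2, StringTie 1.3.1 and DESeq2 without a role, and the build and annotation are not given in the sources used here. A symbol was missing for 112 rows and 17 symbols were shared by several rows. The members, lists and named genes were chosen with earlier results of these data known. The named genes were the 10 members, 9 partners, any other called gene of the lists and the 6 further genes with the smallest unadjusted p, beside ferritin copies with counts. Of these, 1 is not reported here.

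Genes were kept by filterByExpr (minimum count 10), which left 10748. Groups were compared with edgeR 4.0.16 (glmQLFit, glmQLFTest, TMM scaling) in R 4.3.3, with Benjamini-Hochberg adjustment over all genes and a threshold of 0.05. Each standard error was derived from the fold change and its F statistic. The scripts were tested on simulated data. Exact two-sided permutation tests over 70 assignments used log2(CPM + 1), and ratios used counts with 0.5 added. Alternatives were DESeq2 1.42.0, limma 3.58.1 (voom), other scalings, filter and threshold, removal of the length and GC trend in each library (natural splines with 4 degrees of freedom, 10719 genes, 99.7%), a replicate block and leaving out each library. Transcripts of GENCODE M21 gave lengths and hairpins. No libraries were duplicates: the smallest chi-square per degree of freedom within a group was 3.02. Library totals are given above, and the spread between libraries is part of each error.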

Additional observations from a re-analysis of the deposited data

Results flagged for a closer look

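In 62 groups of 4 libraries, taken for every named gene and every ratio with PBS and with rFSTL1, the highest and lowest libraries were compared with the rest by Dixon's test, and 3 were set apart, where chance alone gives 3.1 (about 1 in 20). None was a member gene or a ratio of them. Bach1 was at 32.1 CPM in rFSTL1 replicate 1 and at 36.2 to 36.6 CPM in the other 3 rFSTL1 libraries. Slc48a1 was at 23.1 CPM in rFSTL1 replicate 2 and at 28.0 to 28.6 CPM in the other 3. Ciao2b was at 16.1 CPM in PBS replicate 2 and at 18.8 to 19.3 CPM in the other 3 PBS libraries.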

How the results depend on the processing

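The count of member genes called was 0 under each alternative but limma voom, which called 1 (Fth1). For the other iron and haem genes it was 1 in the comparison as reported, 3 by DESeq2, by limma voom and at a threshold of 0.1, 2 with every gene of at least 1 count kept, and 0 (without PBS replicate 4) to 2 (without rFSTL1 replicate 1) as single libraries were left out. Over all genes the count of 37 became 197 by DESeq2, 454 by limma voom, 56 with upper-quartile scaling, 127 with every counted gene kept, 133 at a threshold of 0.1, 99 with the length and GC trend removed, and 11 to 99 as single libraries were left out. Removal of that trend turned the log2 fold change of Ftl1 to -0.018, Tfrc to 0.043, Slc40a1 to 0.037, Blvrb to -0.013, Bach1 to 0.015 and Slc48a1 to -0.051. It turned the log2 ratio of Tfrc to Fth1 to 0.013, Slc40a1 to Tfrc to -0.0048 and Blvrb to Blvra to -0.0091, and that of Ireb2 to Aco1 weakened to -0.091 (exact permutation p = 0.0571). Why the trend removal turned them was not tested. Leaving out single libraries moved values near 0 across it: from -0.0066 to 0.052 for Slc11a2, -0.14 to 0.039 for Slc11a1, -0.12 to 0.051 for Slc40a1, -0.052 to 0.0098 for Blvra, -0.023 to 0.25 for Blvrb, -0.053 to 0.0051 for Bach1 and -0.056 to 0.089 for Slc48a1. Without changing sign, the value ran from -0.14 (without rFSTL1 replicate 2) to -0.041 (without rFSTL1 replicate 4) for Tfrc, and with the same libraries left out from -0.21 to -0.095 for Ireb2, 0.13 to 0.0039 for Steap3, -0.088 to -0.020 for Slc25a37 and 0.13 to 0.067 for Pcbp1, and from -0.14 to -0.061 for Fbxl5. For the ratios the ranges were -0.010 to 0.023 for Fth1/Ftl1, -0.24 to -0.14 for Tfrc/Fth1, -0.029 to 0.13 for Slc40a1/Tfrc, -0.0052 to 0.14 for Slc11a2/Slc11a1, -0.28 to -0.19 for Ireb2/Aco1 and -0.065 to 0.29 for Blvrb/Blvra. Over all alternatives, 143 fold changes of the member genes kept direction and side of the threshold, 16 turned and 1 (Fth1 by limma voom) passed it. The exact tests of single members kept their side of the threshold with a pseudocount of 0.1 and with library totals.

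The replicate numbers did not pair the libraries, since same-numbered libraries deviated together with correlations of -0.03, 0.01, -0.01 and -0.01. In the fit with a replicate block, 41 of all genes, 0 members and 1 other iron or haem gene were called. With the block and the trend removal together 98 genes were called, and the log2 fold changes that turned were -0.017 for Ftl1, 0.042 for Tfrc, 0.036 for Slc40a1, -0.032 for Blvrb, 0.013 for Bach1 and -0.053 for Slc48a1. Blvrb, Slc11a1 and Slc40a1 were counted least, and their intervals limit what could be detected.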

Other observations

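In the rows of ferritin relatives and copies, 7 of 10 symbols had a row in the count table and 1 (Ftl1-ps1) was tested. Its hairpin motif lies in the 5′ UTR of the annotated copy at chr13:74406428-74406457 (GRCm38, plus strand) and its 30 bases are those shown for Ftl1.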
